A study of Mus musculus with 18 samples.

Results

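Genes for the extracellular matrix, the protein and sugar scaffold that cells secrete around themselves, were followed across the 6 siRNA groups of a knockdown experiment in mouse neuroblastoma cells. The members were 75 protein-coding genes out of 55414 genes in the count table, chosen by symbol: 44 collagen chains, 11 laminin chains, 4 latent TGF-β binding proteins (Ltbp1 to Ltbp4), 2 fibrillins, 5 lysyl oxidases and 9 single genes, which are Fn1, Eln, Sparc, Tnc, Vcan, Nid1, Nid2, Hspg2 and Chst15. The list was drawn up partly because Fbn1 and Chst15 were higher in the knockdowns, so the values of these genes are given as a description and both were left out of every count of members that passed a test. After a filter on low counts, 47 members were tested in the model of 3 conditions and 48 in the model of 6 siRNA groups, which left 45 and 46 members to count.

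Collagens assemble from 3 chains wound into a triple helix. Type IV collagen forms the network of basement membranes, where it is joined to laminins by nidogens and by perlecan, whereas fibrillar collagens form the cables of tendon and skin. Fibrillins build microfibrils on which elastin is laid down and to which latent TGF-β binding proteins attach, and lysyl oxidases crosslink collagen and elastin outside the cell. The matrix around neurons holds little fibrillar collagen and is rich in chondroitin sulfate proteoglycans such as versican.

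RNA was measured in Neuro-2a (N2A) cells, a cultured line from a mouse neuroblastoma, 72 h after transfection of an siRNA. The siRNAs were directed at Fmr1 (Fmr1 KD), which encodes the translational repressor FMRP, at Zfp598 (Zfp598 KD), which encodes the ubiquitin ligase that recognizes collided ribosomes, or at no mouse transcript (Scramble KD). Each of the 3 conditions was made with 2 siRNAs of different sequence, A and B, in 3 libraries each, which gave 6 groups and 18 libraries of total RNA depleted of rRNA. Per the study's methods the knockdown was done in triplicate with each siRNA, so p-values measure the spread between repeats of 1 cell line.

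Libraries held 7674724 to 15414590 counts. Fmr1 was at 60.1 ± 6.41 CPM (counts scaled to the library total after TMM normalization; SD, n = 6) in Scramble KD and 22.4 ± 5.10 in Fmr1 KD, and Zfp598 was at 118 ± 9.52 in Scramble KD and 41.0 ± 5.37 in Zfp598 KD. The most counted gene of the series took 5.0 to 25.8% of a library, with the highest shares in Zfp598 KD A3 and A2. Fmr1 KD B1 stood apart from the other 17 libraries: its 4 Y-linked genes summed to 11.5 CPM against at most 0.150 elsewhere, and results of members that rest on it are given with and without it. The neuroblastoma markers (13 genes, such as Chga and Tubb3) summed to between 1222 and 2159 CPM in every library, with the highest group in Scramble KD siRNA A and the lowest in Scramble KD siRNA B. The fibroblast markers summed to 216 to 262 CPM in Fmr1 KD siRNA A and 257 to 307 CPM in Zfp598 KD siRNA B, against 484 to 704 CPM in the other 4 groups; Fbln1, itself a matrix gene, made up most of the sum in every library, and the fibroblast genes Lum and Fap had no count in any. In these bulk libraries fewer cells of a type and less RNA per cell cannot be told apart.

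Of the 12 highest members, 7 encode basement membrane proteins. As TPM (transcripts scaled by exon length and by the sum over all genes, mean of 18 libraries), the list was led by Col6a5, a chain of the beaded-filament collagen VI, at 288 TPM and Col4a2 at 281 TPM. They were followed by Lamc1, the γ1 chain shared by most laminins, at 180.3 TPM, Ltbp4 at 177 TPM, the collagen-binding glycoprotein Sparc at 177 TPM and Col4a1 at 170.1 TPM. Perlecan (Hspg2) was at 109 TPM, fibronectin (Fn1) at 105 TPM, Lama5 at 81.4 TPM, Loxl2 at 65.6 TPM, Lama4 at 62.1 TPM and Lamb2 at 38.6 TPM. These 12 genes carried 87.3% of the summed TPM of the list.

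Fibrillar collagens were low. The 11 fibrillar collagens together reached 19.8 TPM, 0.998% of the list, with Col1a1 at 1.41 TPM and Col3a1 at a single count in 18 libraries. In all, 22 members lay above 10 TPM, 21 between 1 and 10 TPM and 32 below 1 TPM, and Col6a3 had no count in any library. The other collagen VI chains lay far below Col6a5, with Col6a6 at 4.45 TPM, Col6a1 at 3.34 TPM, Col6a2 at 0.045 TPM and Col6a4 at 0.032 TPM. The laminin β chain at high level was Lamb2, whereas Lamb1 lay at 0.28 TPM; the chains of laminins α4β2γ1 and α5β2γ1 were thus among the 12 highest members, and those of laminin-111 were not all, since Lama1 had 38 counts in the whole series. The 27 members that did not pass the filter in the model of 6 groups lay at 0.353 TPM or lower.

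**Figure D1:**
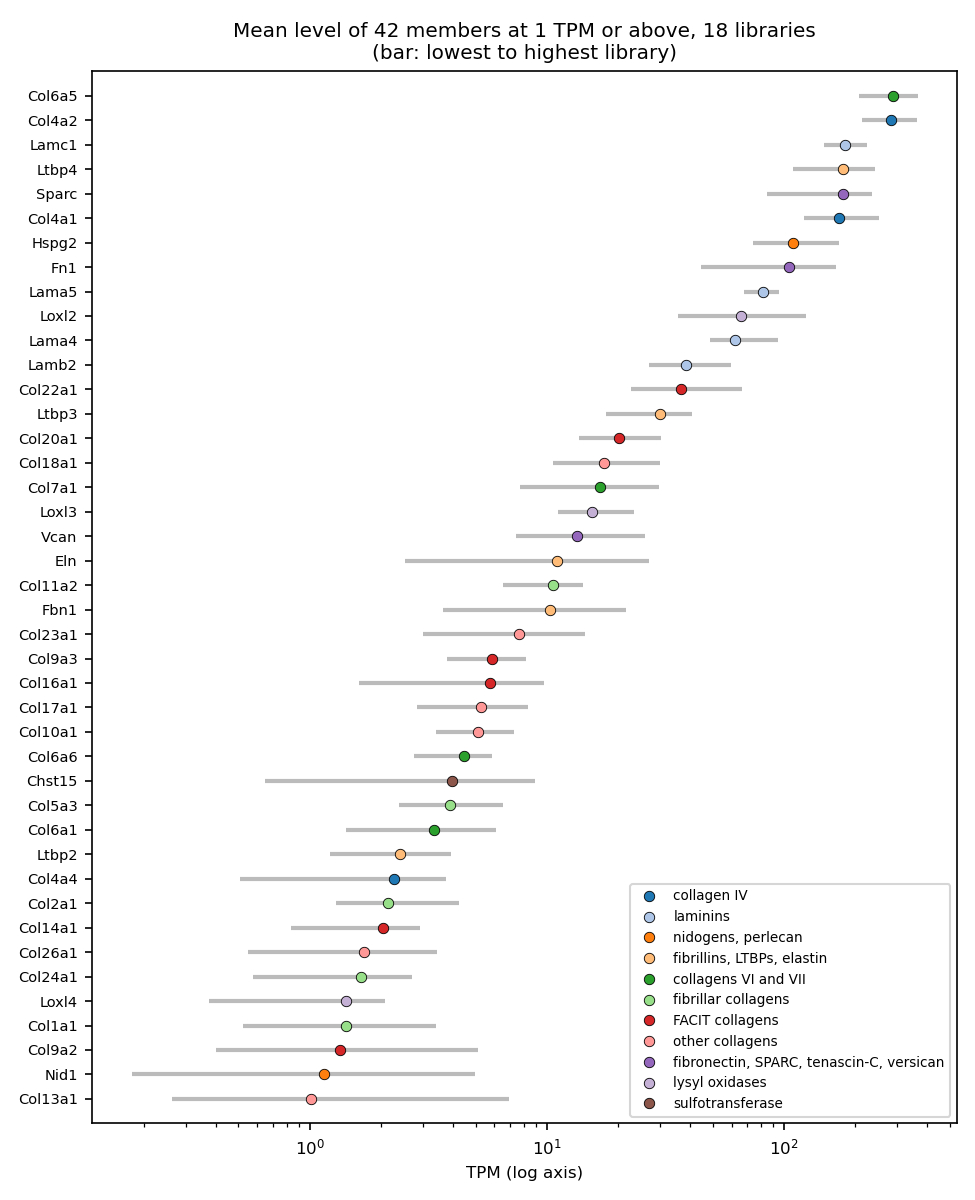
Mean level of 42 members at 1 TPM or above, with TPM on a log axis; each point is a gene coloured by its role and each grey bar runs from the lowest to the highest of the 18 libraries. Col6a5, collagen IV, laminin chains, Ltbp4, Sparc and perlecan fill the top of the list, and fibrillar collagens lie at 10.6 TPM (Col11a2) or lower.

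Fbn1, for the main microfibril protein (ENSMUSG00000027204; chromosome 2, 125142514 to 125349913, minus strand, GRCm39), was ordered by siRNA group. It lay at 8.42, 9.07 and 9.64 CPM with Scramble KD siRNA B and at 13.5, 14.0 and 16.0 CPM with Scramble KD siRNA A. Fmr1 KD gave 21.3, 25.5 and 26.6 CPM with siRNA A and 42.0, 47.7 and 45.5 CPM with siRNA B. Zfp598 KD gave 19.0, 17.5 and 24.4 CPM with siRNA A and 28.8, 36.8 and 29.8 CPM with siRNA B. Every knockdown library was above every Scramble KD library, the order of group means was Scramble B, Scramble A, Zfp598 A, Fmr1 A, Zfp598 B, Fmr1 B, and only the ranges of Zfp598 A and Fmr1 A overlapped. The log2 difference from the Scramble siRNA of the same letter was 0.75 (Fmr1 A), 2.32 (Fmr1 B), 0.46 (Zfp598 A) and 1.81 (Zfp598 B), values that chose the list and carry no test here. The 2 Scramble siRNAs differed by -0.68 on the log2 scale in the same gene.

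Chst15 encodes the sulfotransferase that adds the second sulfate of chondroitin sulfate E (ENSMUSG00000030930; chromosome 7, 131837507 to 131919201, minus strand, GRCm39). It lay at 3.61, 5.50 and 3.12 CPM with Scramble KD siRNA A, at 3.09, 2.97 and 0.958 CPM with Scramble KD siRNA B and at 3.79, 3.66 and 3.92 CPM with Fmr1 KD siRNA A. It was higher with Fmr1 KD siRNA B, at 8.99, 10.4 and 12.8 CPM, and with Zfp598 KD siRNA B, at 7.33, 9.79 and 7.35 CPM, while Zfp598 KD siRNA A gave 7.17, 4.26 and 4.60 CPM. The level with Fmr1 KD siRNA A lay inside the range of Scramble KD siRNA A (log2 difference -0.11), whereas the B siRNAs of both targets were above all 6 Scramble KD libraries. Annotated exons on the opposite strand overlap 20.1% of the exon length of Fbn1 (Gm9913) and 24.1% of that of Chst15 (Gm10584), and the strand setting of the counting was not given in the sources used here, so reads of these partners cannot be told apart from reads of the genes.

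The bases before the start sites of Fbn1 and Chst15 are shown, with those of 3 members described next (Col6a1, Col18a1 and Vcan). These 3 rose in Fmr1 KD and have an entry. With both siRNAs pooled, the mean of each gene shown was higher in Fmr1 KD than in Scramble KD. The genes did not move together in every group, since Chst15 did not rise with Fmr1 KD siRNA A. With Zfp598 KD siRNA B, Fbn1 and Chst15 were higher and Col18a1 and Vcan lower than with either Scramble siRNA. Each line gives the 250 bases upstream of the first RefSeq start (GRCm38.p6 coordinates), 5′ to 3′ in the direction of transcription, with 3 motifs in capitals wherever they lie on either strand: the CCAAT box, the GC box core GGGCGG and the AP-1 letters TGANTCA.
Fbn1 (chr2:125506439-125506688, minus strand): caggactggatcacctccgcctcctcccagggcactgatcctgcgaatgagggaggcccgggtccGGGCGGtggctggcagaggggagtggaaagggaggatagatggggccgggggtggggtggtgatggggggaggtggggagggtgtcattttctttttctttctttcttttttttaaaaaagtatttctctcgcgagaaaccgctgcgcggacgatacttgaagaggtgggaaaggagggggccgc
Chst15 (chr7:132317229-132317478, minus strand): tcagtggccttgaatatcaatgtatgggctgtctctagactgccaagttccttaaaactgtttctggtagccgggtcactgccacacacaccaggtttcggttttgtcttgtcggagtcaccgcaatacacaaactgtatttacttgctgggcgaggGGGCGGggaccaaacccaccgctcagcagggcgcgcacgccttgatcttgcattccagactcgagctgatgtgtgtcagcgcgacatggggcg
Col6a1 (chr10:76726045-76726294, minus strand): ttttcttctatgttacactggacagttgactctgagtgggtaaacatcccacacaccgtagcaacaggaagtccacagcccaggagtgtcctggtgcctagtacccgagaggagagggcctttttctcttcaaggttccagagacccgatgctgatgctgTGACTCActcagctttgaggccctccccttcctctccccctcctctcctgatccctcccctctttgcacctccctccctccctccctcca
Col18a1 (chr10:77166531-77166780, minus strand): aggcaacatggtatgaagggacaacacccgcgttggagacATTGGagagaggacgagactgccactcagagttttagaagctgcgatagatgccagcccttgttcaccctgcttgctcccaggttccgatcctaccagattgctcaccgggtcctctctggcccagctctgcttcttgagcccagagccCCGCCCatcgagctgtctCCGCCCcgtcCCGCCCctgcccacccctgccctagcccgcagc
Vcan (chr13:89742513-89742762, minus strand): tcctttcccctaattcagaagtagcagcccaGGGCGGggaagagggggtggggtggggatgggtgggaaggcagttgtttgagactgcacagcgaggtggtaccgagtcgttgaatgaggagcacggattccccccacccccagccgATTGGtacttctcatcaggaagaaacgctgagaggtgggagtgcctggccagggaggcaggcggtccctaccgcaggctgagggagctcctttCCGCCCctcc

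GGGCGG was in 37 of 61 windows of the 52 members with an entry (60.7%) and in 32.7% of all 32851 windows of this length. Of the windows shown, those of Fbn1, Chst15, Col18a1 and Vcan held it and that of Col6a1 did not. Another RefSeq start of Col18a1, not shown, had neither GGGCGG nor CCAAT before it. CCAAT was in 29.5% of member windows against 33.8% of all, and TGANTCA in 1.64% against 6.75%; the single member window with TGANTCA was that of Col6a1. The letters CANNTG were in 59.0% of member windows against 66.2% of all, and CAGACA in 23.0% against 17.1%. Both strands were searched, no capital letter in the 5 windows belongs to more than 1 motif, and a match is a description of the letters only.

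With both siRNAs of a target pooled, 5 members rose in Fmr1 KD and none fell, against 2.73% of all genes higher and 3.80% lower. Among them were Col4a1, Col6a1, Col18a1 (the source of endostatin) and Vcan. Col6a1 rose by 0.89 ± 0.25 (log2 ± SE, adjusted p = 0.0349, edgeR quasi-likelihood test with Benjamini-Hochberg adjustment over 17901 genes), Vcan by 0.72 ± 0.18 (0.022), Col18a1 by 0.55 ± 0.16 (0.0457) and Col4a1 by 0.49 ± 0.13 (0.0268). None changed over 2-fold, where the background was 0.665% higher and 0.335% lower. The median log2 difference of the 45 members was 0.22, beside 0.0025 for all genes, and 30 members had a positive value. Only Col18a1 had all 6 Fmr1 KD libraries above all 6 Scramble KD libraries (2.47% of all genes did), and annotated exons of Slc19a1 on the opposite strand overlap 12.7% of its exon length.

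These 5 calls were close to the threshold. Two-sided exact permutation tests of 6 against 6 libraries gave these 4 genes unadjusted p-values from 0.00216 (Col18a1, the smallest that 6 against 6 can give) to 0.0108 (Col4a1). These tests treat repeats of 2 siRNAs as separate units. They also use the same libraries in which the genes were picked, so the p-values are no independent support. Without Fmr1 KD B1, 2 members passed (Col4a1 at 0.49 and Vcan at 0.66), 1 passed without Scramble KD B1, without Scramble KD B3 or without Fmr1 KD B3, 2 without Scramble KD B2, Fmr1 KD A1 or Fmr1 KD B2, and 3 without Fmr1 KD A3. With the counts summed per siRNA, which leaves 2 values against 2, none passed.

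The Zfp598 KD comparison uses the same Scramble KD libraries. With both siRNAs pooled, no member passed the edgeR test in either direction, against 0.916% of all genes higher and 1.04% lower (over 2-fold 0.251% and 0.212%). At an unadjusted p under 0.05 there were 6 of 45 members, against 18.1% of all genes, and DESeq2 called 1. No member had all 6 Zfp598 KD libraries above all 6 Scramble KD libraries (0.776% of all genes did). The median log2 difference of the 45 members was -0.0015, beside 0.012 for all genes. Without Zfp598 KD A2 and A3, which held the largest shares of the most counted feature, 3 members passed, and 1 passed without Zfp598 KD A1 or A3.

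The Scramble siRNAs themselves differed in the matrix. With Scramble KD siRNA B, 6 members were higher and 18 lower than with siRNA A, against 9.48% and 11.6% of all genes, so 24 of the 46 tested members (52.2%) passed in a comparison with no target. Eln fell most, by 3.11 ± 0.26 on the log2 scale (adjusted p = 5.37e-08, edgeR), followed by the fibril collagen Col1a1 (-1.47 ± 0.40), Col6a1 (-1.24 ± 0.20) and the laminin γ3 chain Lamc3 (-1.21 ± 0.41). The largest rises were in the transmembrane collagen Col23a1 (1.15 ± 0.21), the fibril-associated collagen Col14a1 (0.94 ± 0.27), Col26a1 (0.94 ± 0.28) and Fn1 (0.75 ± 0.16). The median log2 difference of the members was -0.48, beside -0.0014 for all genes. The neuroblastoma marker sum also differed without overlap, at 2006 to 2159 CPM with Scramble KD siRNA A and 1222 to 1383 CPM with siRNA B, and its part was not tested. The most counted gene took 11.1, 5.00 and 8.83% of the Scramble KD siRNA A libraries. It took 5.56, 5.56 and 5.68% of the Scramble KD siRNA B libraries, and its part was not tested either.

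Each knockdown siRNA was therefore read against the Scramble siRNA of the same letter and against the other one. Against its own letter, 6 members were higher and 5 lower with Fmr1 KD siRNA A (background 9.35% and 12.7%), while 17 were higher and 1 lower with Fmr1 KD siRNA B (11.0% and 10.4%). With Zfp598 KD siRNA A 2 were higher and 4 lower (5.60% and 5.43%), and with Zfp598 KD siRNA B 7 were higher and 8 lower (12.0% and 13.2%). The count for Zfp598 KD siRNA A was 13 without Zfp598 KD A1, 3 without Zfp598 KD A2 and 2 without Scramble KD A2, and that for siRNA B was 9 without Zfp598 KD B1. Without Fmr1 KD B1, 14 were higher and 1 lower with Fmr1 KD siRNA B.

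Members passing in the same direction with both siRNAs of a target were about as rare as among all genes. For Fmr1, 1 member passed upward with both, against 1.60% of all genes, and none downward, against 2.72%. For Zfp598 no member passed with both siRNAs by the edgeR test, where the background was 0.563% higher and 1.09% lower.

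Held against each of the Scramble siRNAs in turn, comparisons that share the knockdown libraries, 9 members were higher with Fmr1 KD siRNA B in both (background 2.95%): Hspg2, Col9a2, Col6a1, Col18a1, Col4a1, Lamb2, Col7a1, Vcan and Nid1. None was lower in both (4.15%). Without Fmr1 KD B1, 7 members were higher in both (1.89%) and none lower (2.73%), since Nid1 and Lamb2 no longer passed against Scramble KD siRNA B, at 0.70 ± 0.36 (log2, adjusted p = 0.21, edgeR) and 0.47 ± 0.18 (0.0796). With Fmr1 KD siRNA A, 1 member was higher in both (5.04%) and Ltbp3 lower in both (7.13%). With Zfp598 KD siRNA B none was higher in both (5.68%) and 5 were lower in both (7.29%), namely Col16a1, Col18a1, Col6a6, Sparc and Vcan. With Zfp598 KD siRNA A none was higher (2.22%) or lower (1.77%) in both.

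With each knockdown read against the Scramble siRNA of its own letter, the effect differed between siRNAs for a larger share of members than of all genes in Fmr1 KD and for a share near the background in Zfp598 KD. For Fmr1, 16 members had a higher effect with siRNA B than with siRNA A and 5 a lower one (background 11.6% and 8.86%), tested as an interaction in edgeR. For Zfp598 the counts were 4 and 7 (9.77% and 10.6%), and 17 members in all without Zfp598 KD A1. Directly between the siRNAs of a target, 16 members were higher and 3 lower with Fmr1 KD siRNA B than A (12.6% and 10.4%), and 4 were higher and 20 lower with Zfp598 KD siRNA B than A (15.2% and 18.1%). Without Fmr1 KD B1 the former were 12 and 2, and the Fmr1 interaction 15 and 5. The most counted gene took up to 25.8% of a Zfp598 KD siRNA A library and up to 7.92% of a siRNA B library. Its part in the Zfp598 counts was not tested.

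The siRNAs of different conditions share only a letter, so the interaction was also computed with the Scramble siRNAs exchanged, each knockdown siRNA against the Scramble siRNA of the other letter (chosen after seeing the data). For Fmr1, 6 members then had a higher effect with siRNA B than A and 10 a lower one (11.5% and 12.0% of all genes), and for Zfp598 the counts were 4 and 24 (15.6% and 19.2%). Of the 21 members called for Fmr1 with matched letters, 1 (Vcan) kept its direction and call, 5 kept the direction only and 15 changed direction. Of the 11 called for Zfp598, 3 (Lama5, Col6a6 and Sparc) kept both, 3 kept the direction only and 5 changed direction. For most members the interaction thus depended on which Scramble siRNA was set against which knockdown.

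**Figure D2:**
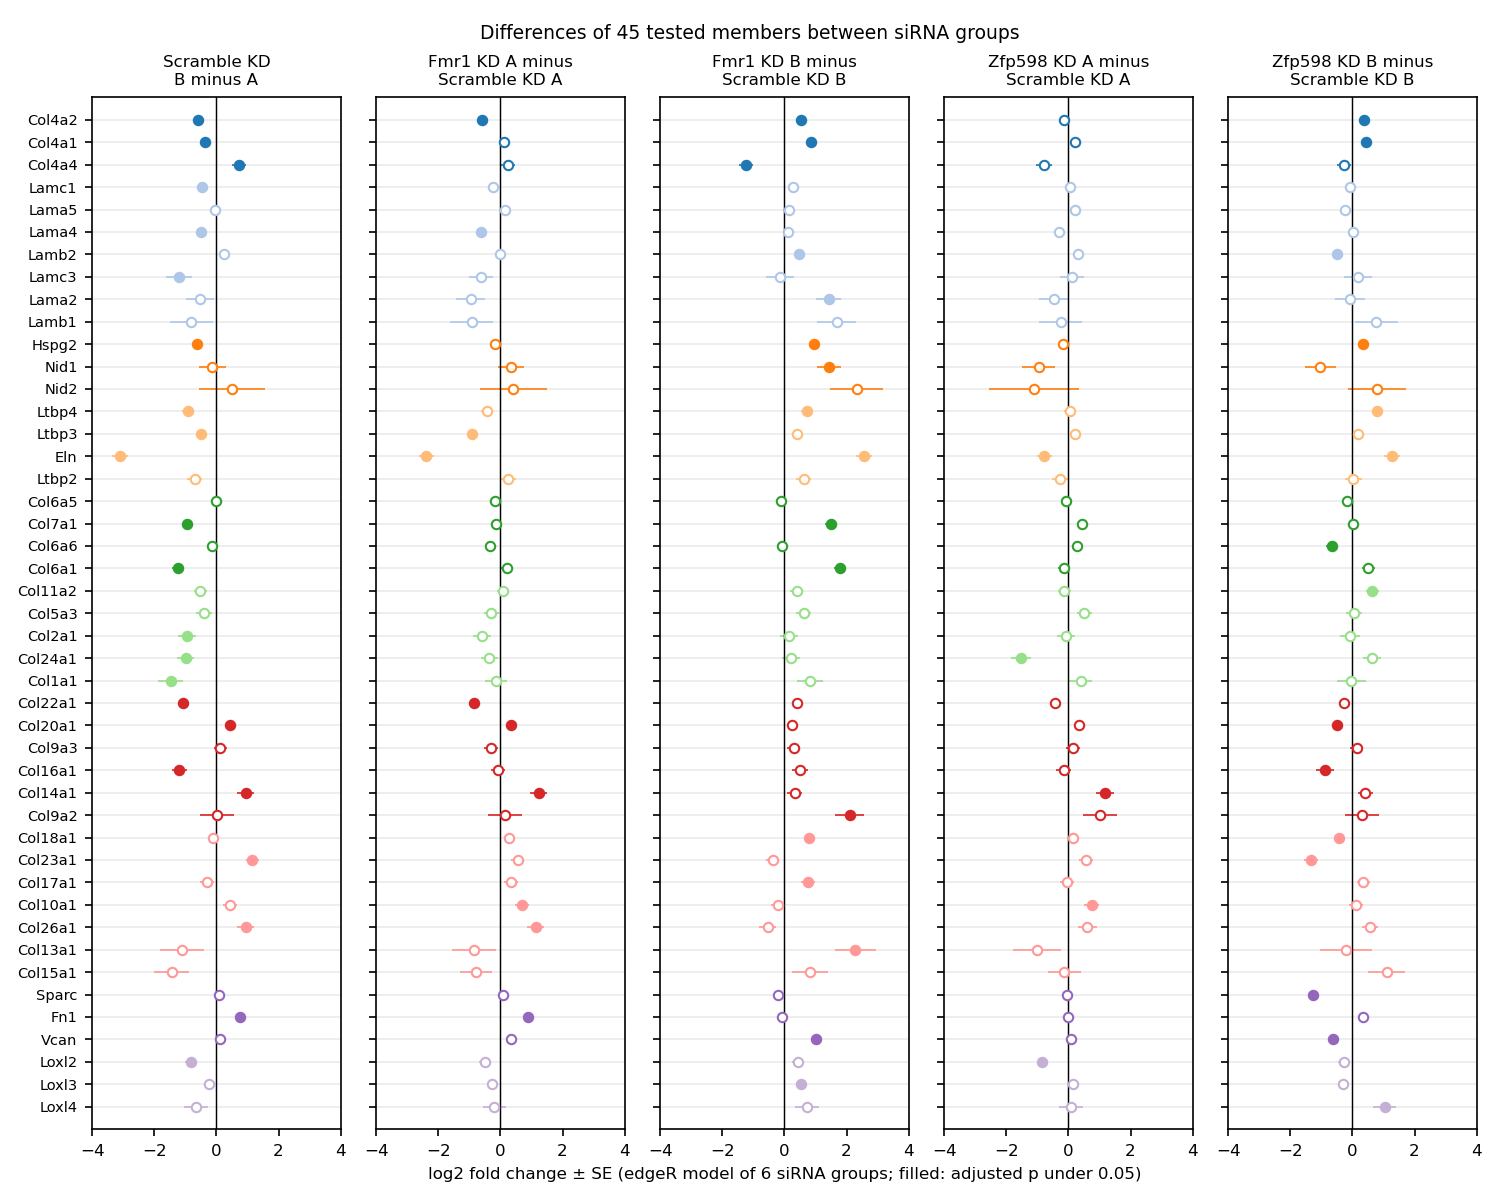
Log2 fold change ± SE (x axis) of 45 tested members, without Fbn1 and Chst15, in 5 comparisons of siRNA groups; filled points passed an adjusted p under 0.05 and colours mark the roles used in the plot of levels. The Scramble comparison at the left holds 23 filled points, and Eln lies at -2.39 with Fmr1 KD siRNA A and at 2.55 with Fmr1 KD siRNA B.

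Eln, for the elastic protein of arteries, lung and skin (ENSMUSG00000029675; chromosome 5, 134731445 to 134776322, minus strand, GRCm39), had the largest difference between the Scramble siRNAs among the members. It lay at 46.9, 27.0 and 40.9 CPM with Scramble KD siRNA A and at 4.14, 4.93 and 4.15 CPM with Scramble KD siRNA B. The order was the opposite in Fmr1 KD, with 7.59, 6.31 and 7.85 CPM for siRNA A and 21.9, 23.3 and 32.4 CPM for siRNA B. Zfp598 KD gave 15.2, 19.8 and 34.3 CPM with siRNA A and 9.80, 10.3 and 11.9 CPM with siRNA B. The lowest and the highest group were thus both Scramble KD, and no pair of groups A and B of one condition overlapped.

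Against the Scramble siRNA of the same letter, Eln fell by 2.39 ± 0.24 with Fmr1 KD siRNA A (adjusted p = 4.22e-07, edgeR) and rose by 2.55 ± 0.26 with siRNA B (4.53e-07), a difference between the effects of 4.95 ± 0.35 (7.6e-09) and of 4.75 to 5.14 when any library was left out. With the Scramble siRNAs exchanged that difference was -1.28 ± 0.35 (0.0111), in the opposite direction. For Zfp598 KD it fell by 0.77 ± 0.23 with siRNA A (0.0319) and rose by 1.27 ± 0.27 with siRNA B (0.0015), a difference of 2.04 ± 0.35 (0.000302), which was -4.18 ± 0.35 (8.48e-08) with the Scramble siRNAs exchanged. With both siRNAs pooled the differences were -0.36 for Fmr1 KD and -0.36 for Zfp598 KD, and neither passed.

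**Figure D3:**
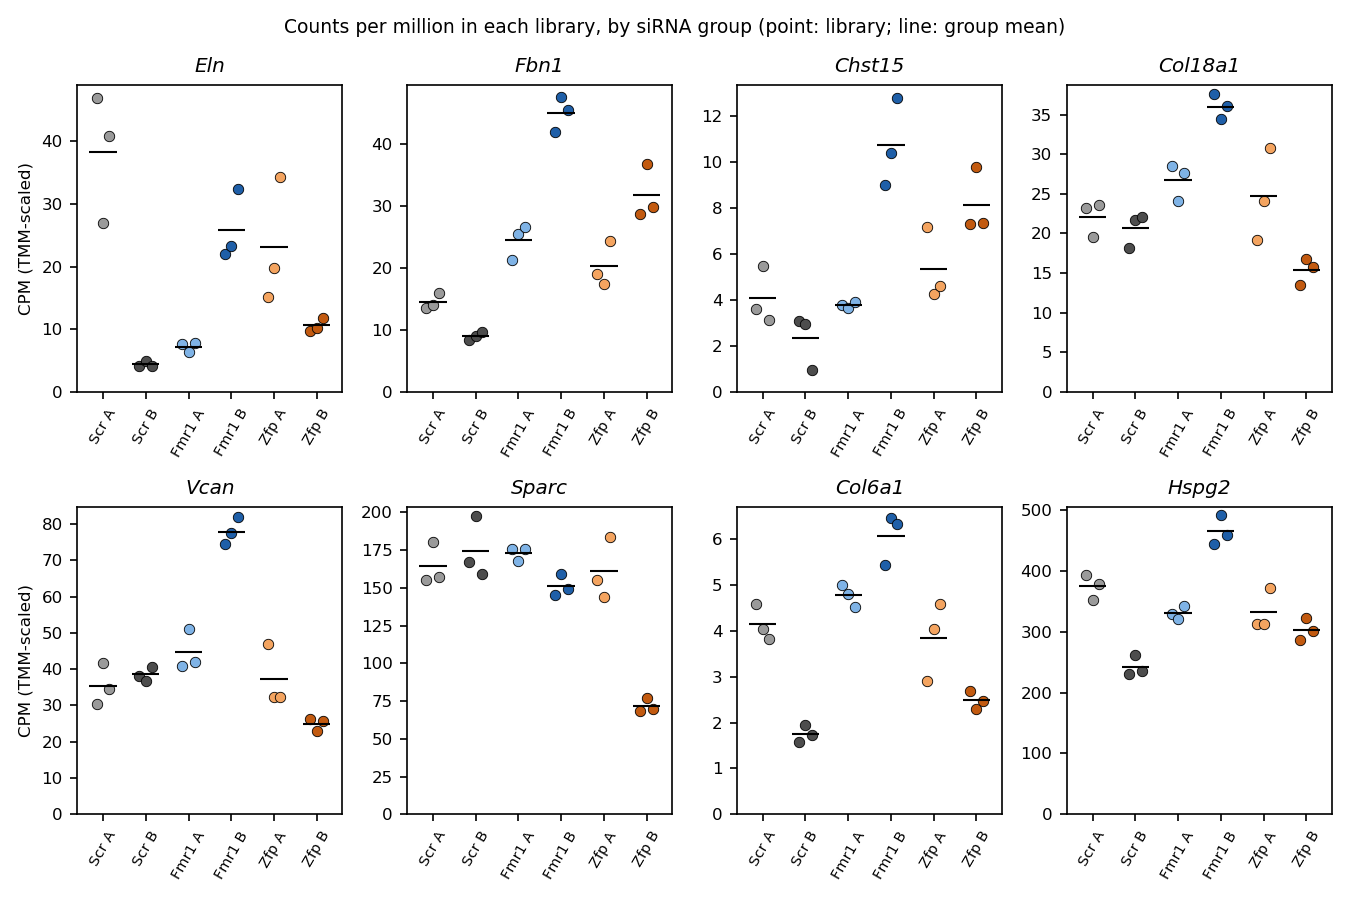
CPM (y axis, from 0) of 8 members in each library by siRNA group (Scr, Scramble KD; Zfp, Zfp598 KD), with points for libraries and lines for group means. Eln is highest with Scramble KD siRNA A (27.0 to 46.9) and lowest with Scramble KD siRNA B (4.14 to 4.93), while Sparc at 68.3 to 77.1 and Vcan at 23.0 to 26.3 are lowest with Zfp598 KD siRNA B.

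Among the latent TGF-β binding proteins, which hold TGF-β in the matrix, Ltbp4 and Ltbp3 differed between siRNAs. Ltbp4 lay at 375, 243 and 323 CPM with Scramble KD siRNA A and at 161, 161 and 174 CPM with siRNA B, a fall of 0.92 ± 0.18 (log2, adjusted p = 0.000904, edgeR). Against that lower Scramble group it rose by 0.72 ± 0.18 with Fmr1 KD siRNA B (245, 288 and 282 CPM; 0.0065) and by 0.80 ± 0.18 with Zfp598 KD siRNA B (259, 307 and 299.9 CPM; 0.00244), and these levels lay within the range of Scramble KD siRNA A. Ltbp3 fell by 0.93 ± 0.15 with Fmr1 KD siRNA A (8.17e-05), from 71.5, 54.2 and 69.2 CPM to 35.1, 31.6 and 35.7 CPM, which was below all 6 Scramble KD libraries. Ltbp2 passed in no comparison with the Scramble siRNA of its letter (0.62 ± 0.25, 0.0901 with Fmr1 KD siRNA B) but did with Fmr1 KD siRNA A against Scramble KD siRNA B (0.95 ± 0.25, 0.00617), and Ltbp1 was not tested.

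Col4a1 and Col4a2, the chains of the collagen IV of all basement membranes, start head to head on chromosome 8 (11248423 to 11362826, minus strand, and 11362471 to 11499287, plus strand, GRCm39) and moved unequally. Col4a1 lay at 263, 199.9 and 236 CPM with Scramble KD siRNA A and 172, 187 and 181 CPM with siRNA B, against 260.4, 226 and 275 CPM and 289.8, 341 and 348 CPM with Fmr1 KD siRNAs A and B. Col4a2 lay at 527, 416 and 479 CPM and 293, 318 and 336 CPM in the same Scramble KD groups, against 316, 290.3 and 338 CPM and 400.5, 477 and 493 CPM. With Fmr1 KD siRNA A, Col4a2 fell by 0.59 ± 0.13 (log2, adjusted p = 0.00248, edgeR) while Col4a1 differed by 0.13 and did not pass. With siRNA B both rose, Col4a1 by 0.86 ± 0.13 (6.49e-05) and Col4a2 by 0.53 ± 0.13 (0.00577), and with Zfp598 KD siRNA B by 0.43 ± 0.13 (0.0199) and 0.36 ± 0.13 (0.0484). Of these rises, only that of Col4a1 with Fmr1 KD siRNA B also passed against Scramble KD siRNA A.

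The ratio of Col4a1 to Col4a2 counts within a library did not depend on the scaling. It was 0.4998, 0.480 and 0.492 with Scramble KD siRNA A and 0.588, 0.589 and 0.539 with siRNA B. In Fmr1 KD it was 0.825, 0.780 and 0.814 with siRNA A and 0.724, 0.715 and 0.705 with siRNA B, so all 6 libraries were above the 6 of Scramble KD and the 6 of Zfp598 KD (0.585 to 0.630). The ratio was looked at after the values of both genes were known and is given without a test; exons of Col4a1 on the opposite strand overlap 4.33% of the exon length of Col4a2. Of the other chains only Col4a4, a chain of the collagen IV of kidney filters, passed the filter, and it fell by 1.23 ± 0.23 with Fmr1 KD siRNA B (0.000483), from 7.04, 7.91 and 8.50 CPM to 3.76, 3.23 and 2.96 CPM. Its Scramble KD siRNA A libraries were at 3.44, 4.83 and 5.67 CPM, and it was 0.74 ± 0.22 higher in Scramble KD siRNA B (0.021). Col4a3, Col4a5 and Col4a6 were not tested.

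**Figure D4:**
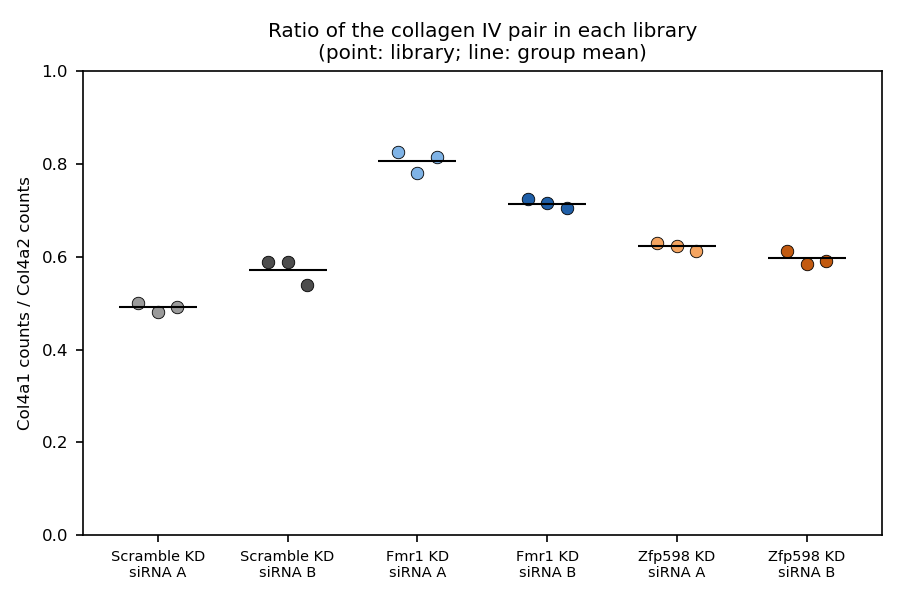
Ratio of Col4a1 to Col4a2 counts (y axis, no unit, from 0) in each of the 18 libraries by siRNA group, with lines for group means. All Fmr1 KD libraries lie at 0.705 or above, Zfp598 KD between 0.585 and 0.630 and Scramble KD between 0.480 and 0.589.

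Among the laminins, 4 of 8 tested chains fell and none rose between the Scramble siRNAs, against 11.6% of all genes lower and 9.48% higher. Lamc1, at 497, 433 and 489 CPM with siRNA A and 325, 359 and 339 CPM with siRNA B, fell by 0.47 ± 0.11 (log2, adjusted p = 0.00445, edgeR), and passed in no comparison of a knockdown with its Scramble siRNA. Lama4, the α4 chain of vessel laminins, fell by 0.62 ± 0.10 with Fmr1 KD siRNA A (8.11e-05), from 236, 286 and 219.6 CPM to 154, 171 and 156 CPM, and by 0.49 ± 0.10 between the Scramble siRNAs (0.00114). Lama5 stayed between 144 and 239 CPM in all 18 libraries, and it was lower by 0.51 ± 0.09 with Zfp598 KD siRNA B than with siRNA A (0.000351). Lamb2 rose by 0.46 ± 0.16 with Fmr1 KD siRNA B (0.0438), a call lost without Fmr1 KD B1 (0.47 ± 0.18, 0.0796), and fell by 0.49 ± 0.16 with Zfp598 KD siRNA B (0.0305). In Zfp598 KD siRNA B it lay at 29.6 to 38.5 CPM, which overlapped Scramble KD siRNA A at 31.9 to 46.7 CPM.

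Perlecan (Hspg2), the heparan sulfate proteoglycan of basement membranes, was higher with Fmr1 KD siRNA B than in any other group. It lay at 393, 352 and 379 CPM with Scramble KD siRNA A, at 230.2, 262 and 235 CPM with Scramble KD siRNA B and at 444, 492 and 458 CPM with Fmr1 KD siRNA B, the last above every other library of the series. The rise with Fmr1 KD siRNA B was 0.94 ± 0.09 (log2, adjusted p = 1.22e-07, edgeR) against Scramble KD siRNA B and 0.31 ± 0.08 (0.0137) against siRNA A. With Fmr1 KD siRNA A it lay at 329.6, 321 and 342 CPM and did not pass (-0.18), and the difference between the Fmr1 effects was 1.12 ± 0.12 (1.23e-06) with matched letters and -0.14 ± 0.12 (0.448) with the Scramble siRNAs exchanged.

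Col6a1 and Col7a1 rose with Fmr1 KD siRNA B. Col6a1, a chain of collagen VI, lay at 1.58, 1.96 and 1.72 CPM with Scramble KD siRNA B and at 5.44, 6.47 and 6.32 CPM with Fmr1 KD siRNA B, a rise of 1.79 ± 0.20 (log2, adjusted p = 1.36e-06, edgeR). Scramble KD siRNA A was at 4.58, 4.04 and 3.83 CPM, against which the rise was 0.55 ± 0.18 (0.0366). Col7a1, the anchoring fibril collagen of skin, rose by 1.48 ± 0.17 (2.21e-06), from 20.8, 19.5 and 15.7 CPM to 43.1, 55.8 and 57.8 CPM, and by 0.55 ± 0.16 (0.0218) from the 40.0, 27.6 and 39.4 CPM of Scramble KD siRNA A. Col6a5, the most abundant member, lay between 471 and 666 CPM and passed in no comparison, and the related Col6a6 was at -0.09 with Fmr1 KD siRNA B (0.747).

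Of the 5 tested fibrillar collagens none passed with an Fmr1 siRNA against the Scramble siRNA of the same letter. Of all genes, 9.35% were higher and 12.7% lower with Fmr1 KD siRNA A, and 11.0% and 10.4% with siRNA B. With only 5 genes, this result cannot be set apart from these shares. With Scramble KD siRNA B, 3 of the 5 (Col1a1, Col2a1 and Col24a1) were lower than with siRNA A, against 11.6% of all genes. Col24a1 fell by 1.53 ± 0.32 with Zfp598 KD siRNA A (log2, adjusted p = 0.00363, edgeR), from 3.61, 3.97 and 3.48 CPM to 0.897, 1.28 and 1.95 CPM, and was at 1.84, 1.52 and 2.17 CPM with Scramble KD siRNA B against 2.54, 3.10 and 2.99 CPM with Zfp598 KD siRNA B. Its Zfp598 effects differed by 2.16 ± 0.43 (0.00101) with matched letters and by 0.18 ± 0.43 (0.773) with the Scramble siRNAs exchanged. The fibril-associated collagen Col16a1 was 1.91 ± 0.29 lower with Zfp598 KD siRNA B than A (4.5e-05), at 2.09, 3.10 and 3.50 CPM against 7.17, 10.9 and 15.9 CPM. In the same comparison Col1a1 was 1.91 ± 0.42 lower (0.00165), Col7a1 1.34 ± 0.17 lower (9.18e-06) and Sparc 1.16 ± 0.10 lower (9.78e-08), while Col4a4 (1.27 ± 0.26), Col24a1 (1.17 ± 0.33), Fn1 (1.11 ± 0.16) and Col26a1 (0.91 ± 0.28) were the 4 that were higher. The most counted gene took 5.67, 15.2 and 25.8% of the Zfp598 KD siRNA A libraries and 5.40, 6.03 and 7.92% of the siRNA B libraries. Its part in these differences was not tested.

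Sparc, which binds collagen and calcium, was set apart by a single siRNA. It lay at 68.3, 77.1 and 70.0 CPM with Zfp598 KD siRNA B and between 144 and 197 CPM in the other 15 libraries. It fell by 1.28 ± 0.10 against Scramble KD siRNA B (log2, adjusted p = 2.44e-08, edgeR) and by 1.19 ± 0.10 against siRNA A (3.99e-08), and differed by -0.03 with Zfp598 KD siRNA A, which did not pass; the effects differed by -1.25 ± 0.14 (2.62e-06), and by -1.08 ± 0.14 (8.38e-06) with the Scramble siRNAs exchanged. The fibroblast marker sum, which is mostly the matrix gene Fbln1, was also low in this group, at 257 to 307 CPM, and its part was not tested. It was 216 to 262 CPM with Fmr1 KD siRNA A, where Sparc was at 176, 168 and 176 CPM.

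Vcan, for the large chondroitin sulfate proteoglycan versican, moved in opposite directions with the B siRNAs. It lay at 38.2, 36.9 and 40.6 CPM with Scramble KD siRNA B, rose to 74.4, 77.4 and 81.8 CPM with Fmr1 KD siRNA B (1.01 ± 0.13 on the log2 scale, adjusted p = 1.05e-05, edgeR) and fell to 26.3, 23.0 and 25.6 CPM with Zfp598 KD siRNA B (-0.63 ± 0.14, 0.00185). Scramble KD siRNA A gave 30.4, 41.6 and 34.4 CPM, so these 2 groups lay outside the range of all Scramble KD libraries. With the A siRNAs the differences were 0.33 for Fmr1 KD and 0.08 for Zfp598 KD and did not pass, and the effects of the siRNAs differed for both targets (0.68 ± 0.19, 0.0113, and -0.71 ± 0.19, 0.012). With the Scramble siRNAs exchanged these were 0.92 ± 0.19 (0.00102) and -0.47 ± 0.19 (0.0615). Fn1, the cell-adhesion protein fibronectin, rose by 0.90 ± 0.16 with Fmr1 KD siRNA A (0.000256), from 168, 268 and 191 CPM to 384, 433 and 354 CPM, but the Scramble KD siRNA B libraries were at 327, 379 and 352 CPM. Of the lysyl oxidases, Loxl2 fell by 0.84 ± 0.19 with Zfp598 KD siRNA A (0.00661), to 78.5, 47.0 and 48.3 CPM, but the Scramble KD siRNA B libraries were at 60.8, 69.7 and 48.8 CPM. Loxl3 rose by 0.54 ± 0.14 with Fmr1 KD siRNA B (0.00662), although Htra2 exons on the opposite strand overlap 25.3% of the exon length of Loxl3. Its Fmr1 KD siRNA B libraries, at 16.6 to 19.9 CPM, overlapped those of Scramble KD siRNA A at 13.8 to 16.9 CPM.

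A few members were high in Fmr1 KD B1 alone. With at least 10 counts there, 10 members were over 2 times the highest of the other 17 libraries: Lama1, Lama3, Lamb1, Nid1, Nid2, Ltbp1, Col5a1, Col11a1, Col13a1 and Col27a1. Lama1, the α1 chain of the embryonic laminin-111, had 37 counts in that library and 1 in all others. Nid2 was at 8.99 CPM against 0.773 and 0.275 CPM in the other Fmr1 KD siRNA B libraries, Col13a1 at 5.84 against 0.844 and 0.550 CPM, and Nid1 at 6.65 against 2.18 and 2.34 CPM. The pluripotent stem cell markers summed to 78.1 CPM in the same library and to at most 28.6 CPM in the others, and their part was not tested.

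Of these 10 members, 6 were not tested, and Lama2 was not among the 10. With Fmr1 KD siRNA B the calls of Nid1, Col13a1 and Lama2 rested on Fmr1 KD B1. Without it the rise of Nid1 was 0.70 ± 0.36 in place of 1.44 ± 0.40, that of Col13a1 0.48 ± 0.53 in place of 2.28 ± 0.66 and that of Lama2, the α2 chain of muscle laminin, 0.88 ± 0.42 in place of 1.42 ± 0.41 (log2 ± SE), and none of them passed. Between the Fmr1 siRNAs, several of the larger rises rested on B1 too: Nid2 was 2.41 ± 0.86 higher with siRNA B than A (adjusted p = 0.0468, edgeR) and at -0.26 ± 0.77 without it, Col13a1 2.04 ± 0.65 and 0.24 ± 0.52, and Lamb1 1.81 ± 0.64 and 1.20 ± 0.71. Col9a2, at 1.99 ± 0.46 and 1.62 ± 0.49 without B1, Lama2, at 1.85 ± 0.43 and 1.30 ± 0.44, and Eln, at 1.84 ± 0.24 and 1.93 ± 0.26, still passed without it. Among the 3 members that were lower with siRNA B than A were Col26a1 (-0.75 ± 0.26), which no longer passed without B1 (-0.70 ± 0.30, 0.125), and Col4a4 (-0.73 ± 0.23), which still did (-0.84 ± 0.27, 0.0365). In the Fmr1 interaction Col13a1 was at 3.14 ± 0.97 with B1 and 1.33 ± 0.70 without, where it did not pass, Lama2 at 2.38 ± 0.62 and 1.83 ± 0.59, and Eln at 4.95 ± 0.35 and 5.04 ± 0.36.

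**Figure D5:**
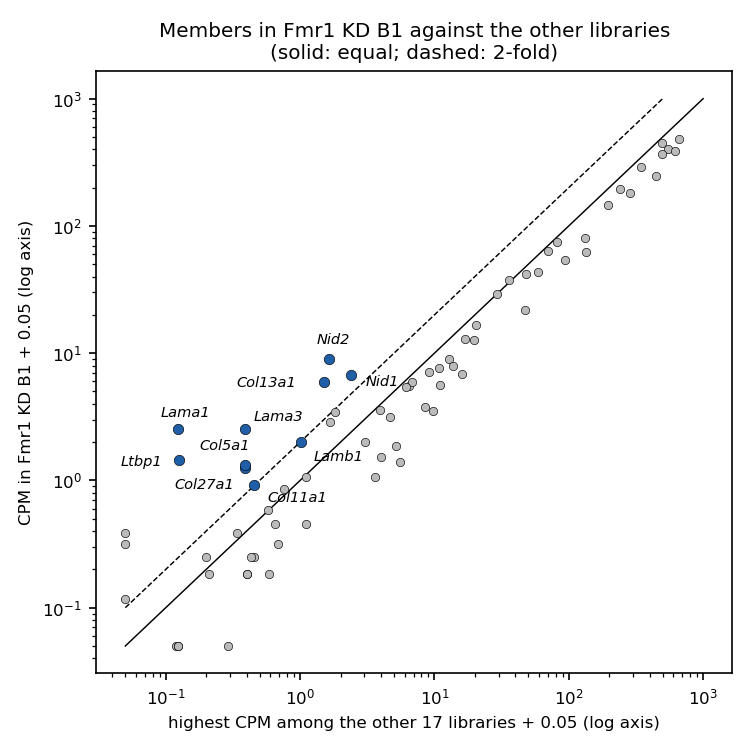
CPM of each member in Fmr1 KD B1 (y axis) against its highest CPM among the other 17 libraries (x axis), both on log axes after adding 0.05, with lines at equality (solid) and 2-fold (dashed); points are the members. The 10 named members in blue had at least 10 counts and over 2 times the CPM of every other library, with Nid2 at 8.99 CPM against at most 1.59.

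Genes that make, cut or bind the matrix were followed in lists drawn up by function. Of 20 tested genes for collagen folding and modification, 5 fell and none rose in Fmr1 KD with both siRNAs pooled. They were the prolyl 4-hydroxylase subunits P4ha2 (-1.10 ± 0.28, adjusted p = 0.0224, edgeR), P4ha1 (-0.84 ± 0.20, 0.0136) and P4hb (-0.55 ± 0.13, 0.0162), the collagen export factor Mia3 (-0.46 ± 0.13, 0.0305) and the lysyl hydroxylase Plod3 (-0.39 ± 0.08, 0.00459). All genes gave 3.80% lower and 2.73% higher in that comparison. By siRNA, 9 fell and none rose with Fmr1 KD siRNA A (12.7% and 9.35% of all genes), whereas 3 fell and 3 rose with siRNA B (10.4% and 11.0%). The fibroblast markers summed to 216 to 262 CPM with Fmr1 KD siRNA A against 507 to 586 CPM with Scramble KD siRNA A. Most of this sum is the matrix gene Fbln1, and its part in these falls was not tested. Among 13 tested matrix proteases and inhibitors, the aggrecanases Adamts1 (1.66 ± 0.19, 2.9e-05) and Adamts4 (0.58 ± 0.13, 0.0106) and the inhibitor Timp3 (0.71 ± 0.21, 0.0471) rose in Fmr1 KD and none fell.

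The other lists gave few calls in the pooled comparisons. The pooled calls of single list genes, here and above, are not given without Fmr1 KD B1 or with counts summed per siRNA. In the pooled Fmr1 KD comparison 2 members passed without B1, against 5 with it. Of all genes, 2.73% were higher and 3.80% lower in Fmr1 KD, and 0.916% and 1.04% in Zfp598 KD. In Fmr1 KD the smooth muscle actin Acta2 rose by 1.56 ± 0.22 (adjusted p = 0.000335, edgeR) as 1 of 13 tested genes of TGF-β control, and the dermatan and chondroitin sulfotransferases Chst14 (0.70 ± 0.21, 0.0488) and Chst12 (0.46 ± 0.11, 0.0174) rose among 13 of chondroitin sulfate synthesis. Of 21 tested matrix receptors, the integrin chain Itga5 rose (0.66 ± 0.18, 0.0298) and Itga6 fell (-0.33 ± 0.10, 0.044). None of the 7 tested partners of elastic fibres passed when pooled, but 5 fell with Fmr1 KD siRNA A (12.7% of all genes) and 6 were higher with Fmr1 KD siRNA B than A (12.6%). The fibroblast marker sum, which is mostly the matrix gene Fbln1, moved the same way in both comparisons. Its part was not tested. In Zfp598 KD, Mia3 fell by 0.58 ± 0.13 (0.0213), the collagen receptor Ddr2 fell by 0.44 ± 0.11 (0.0371) and Smad4, a TGF-β signal mediator, rose by 0.50 ± 0.10 (0.0156).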

How the data were processed

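Per the labels and the methods, the authors trimmed reads (Trim Galore), aligned them to GRCm39 (STAR) and counted reads over exons (featureCounts); the deposited values are raw counts per Ensembl gene, with no normalization. Versions, the annotation release and the strand setting were not given in the sources used here. Symbols, GRCm39 positions and exon lengths came from GENCODE M39, which held 98.8% of the identifiers. Genes were kept by filterByExpr (minimum count 10, total 15), scaled by TMM and tested in edgeR 4.0.16 (R 4.3.3) by the quasi-likelihood test over all 18 libraries, in a model of 3 conditions (17901 genes) and a model of 6 siRNA groups (19003 genes), with Benjamini-Hochberg adjustment over all genes and an adjusted p of 0.05. The scripts were tested on simulated data. DESeq2 1.42.0, other scalings, filters, blocks and left-out libraries were alternatives, and the tests against the Scramble siRNA of the other letter, without Fmr1 KD B1 against both, and without Zfp598 KD A2 and A3 were chosen after seeing the data. TPM used the union of exons. Members and gene lists were chosen with earlier results of these data known. Named members were, by rule, the 12 highest by TPM, those passing over 2-fold or with both siRNAs, the 4 largest changes between siRNAs, interactions over 4-fold, the collagen IV pairs, the chains of 3 laminins named by rule, and list genes passing over 2-fold when pooled; the others were chosen after their values were seen. No protein sequence was analysed here. The values of 1 member are not reported here, although it is in the counts.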

Additional observations from a re-analysis of the deposited data

Results flagged for a closer look

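In 141 sets of 6 libraries (47 members in 3 conditions), 8 members had a library far from the others; chance flags about 1 in 20 groups. Of these, 4 were in Fmr1 KD B1: Nid2 at 8.99 CPM against 0.882 in the next library, Nid1 at 6.65 against 2.34, Col13a1 at 5.84 against 0.844 and Col23a1 at 13.0 against 9.40. In Zfp598 KD, A1 had the highest Col6a5 (623 CPM against 531) and Lama4 (225 against 190.1) and the lowest Col11a2 (9.86 against 15.9), and A3 had the highest Col2a1 (9.73 against 4.16).

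The 4 Y-linked genes, which no comparison used, summed to 11.5 CPM in Fmr1 KD B1 and to at most 0.150 CPM in any other library.

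By the interaction test, the effect of the knockdown differed between siRNA B and siRNA A in 21 of 46 members for Fmr1 (45.7%). Of all genes, 11.6% passed this test upward and 8.86% downward. For Zfp598 it was 11 members (23.9%), a share near the background of 9.77% upward and 10.6% downward. Over 4-fold, the members for Fmr1 were Eln (4.95 on the log2 scale), Col13a1 (3.14) and Lama2 (2.38). Those for Zfp598 were Col24a1 (2.16) and Eln (2.04). Without Fmr1 KD B1, Col13a1 was at 1.33 and no longer passed (adjusted p = 0.209, edgeR), and Lama2 was at 1.83 (0.0364), under 4-fold. With the Scramble siRNAs exchanged between the letters, Eln was at -1.28 for Fmr1 and -4.18 for Zfp598, and Col13a1 (0.93), Lama2 (1.32) and Col24a1 (0.18) did not pass.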

How the results depend on the processing

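Of 286 values of single members in the pooled comparisons under alternatives, 242 kept direction and call, 44 kept direction only and none reversed; of 3877 in the comparisons of siRNA groups the numbers were 3519, 332 and 24, and 2 values without a test moved by more than the replicate spread. Reversals outside the exchange of Scramble siRNAs were Chst15 with Fmr1 KD siRNA A, at 0.18 without Scramble KD A2 (-0.29 to 0.18 over the left-out libraries), and Nid2 between the Fmr1 siRNAs, at -0.26 without Fmr1 KD B1 (-0.26 to 2.95). Members passing in Fmr1 KD with both siRNAs pooled numbered 8 by DESeq2, 2 with the replicate block and 0 with counts summed per siRNA, against 5. In Zfp598 KD they numbered 1 by DESeq2, 1 with the siRNA letter as a block and 3 without Zfp598 KD A2 and A3 (chosen after seeing the data), against 0. With the Scramble siRNAs exchanged between letters (chosen after seeing the data), 28 members had a Zfp598 effect that differed between siRNAs, against 11. The log2 interactions that reversed there were, for Fmr1, Eln (-1.28), Col6a1 (-0.89), Col22a1 (-0.87), Ltbp4 (-0.70), Loxl2 (-0.68), Lamc1 (-0.44), Col7a1 (-0.25), Lama4 (-0.23), Hspg2 (-0.14), Col4a2 (-0.049), Col4a1 (-0.010), Col4a4 (0.0068), Col26a1 (0.19), Fn1 (0.52) and Col23a1 (1.38), and, for Zfp598, Eln (-4.18), Ltbp4 (-1.08), Hspg2 (-0.76), Chst15 (-0.25), Fbn1 (-0.014), Col20a1 (0.030) and Col23a1 (0.40). Fmr1 KD siRNA B had 29 in place of 18 with no filter on low counts. The causes were not tested. Leaving out each library gave 1 to 6 members for pooled Fmr1 KD, 0 to 1 for pooled Zfp598 KD, 2 to 13 for Zfp598 KD siRNA A, 9 to 17 for Zfp598 KD siRNA B and 9 to 17 for the Zfp598 interaction. Every other count of members stayed within 1.5 times of its value under the alternatives run. Replicate numbers did not pair the libraries: the median correlation of same-numbered libraries was 0.037 (-0.31 to 0.25, 45 pairs), and other pairs reached 0.46.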
